A study of Oryza sativa with 12 samples.

Results

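The cultivar by drought interaction in rice (Oryza sativa) seedlings is the drought change of N22 minus the drought change of IR64, that is (N22 drought minus N22 control) minus (IR64 drought minus IR64 control). It draws on 12 of the 12 libraries of the series and was taken on log2(FPKM + 1), by group means and within each replicate number, which gives 3 differences of differences per gene. The submitters describe N22 as a drought tolerant cultivar and IR64 as a sensitive one. The 4 groups, of 3 libraries each, were N22 drought, N22 control, IR64 drought and IR64 control. All seedlings were 21 days old, were grown in a culture room and carried no stated transgene. Drought was imposed by 6 h in 20% PEG (polyethylene glycol), which draws water from roots by osmosis, and control was 6 h in water. The labels give no organ, and each cultivar is a single genotype. The series text speaks of biological replicates but not of separate cultures, so the p-values reflect how far these libraries vary, which may be technical.

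Expression was given by the authors as FPKM, fragments scaled by transcript length and library size. A row is 1 identifier of the authors' transcript assembly, with the rice locus or loci it covers. Of 39718 rows in any library, 25730 were listed in all 12, and 22734 of these passed a filter for low values (FPKM 1 or more in 2 libraries of any 1 group) and were tested. Libraries listed 30625 to 32107 rows, with FPKM sums of 684525 to 761822. FPKM values hold no counts, so the number of reads behind each library is unknown. Changes on the log2(FPKM + 1) scale understate those of low genes, more so in the cultivar with the lower level. An interaction can thus arise without a difference in fold change. The threshold for a call was a limma adjusted p no greater than 0.05 with a log2 difference of at least 1. "Rose" and "fell" are used of genes called for drought within a cultivar. In RNA from whole samples, fewer cells of a type and less RNA per cell cannot be told apart.

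Plants that lose water build up abscisic acid (ABA). ABA binds receptors of the PYL/RCAR family, which then block clade A PP2C phosphatases. The blocked phosphatases release SnRK2 kinases, and these activate bZIP transcription factors. Among the genes switched on are those of late embryogenesis abundant (LEA) proteins and dehydrins, which protect proteins and membranes as cells dry, and those of the phosphatases and of ABA-degrading enzymes, which feed back on the signal. An interaction asks of each gene whether its response to the treatment was equal in both cultivars, whatever its level in control.

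For nearly all rows the difference between the drought responses of the cultivars did not pass the test, given the spread between replicates. The interaction was called for 15 rows, 0.0660% of those tested. The difference was positive, meaning a drought change that was higher in N22, in 13 (0.0572%) and negative in 2 (0.00880%). By the same thresholds, drought changed 2667 rows in N22 (11.7%), 1447 upward (6.36%) and 1220 downward (5.37%). In IR64 it changed 1927 (8.48%), 986 upward (4.34%) and 941 downward (4.14%). In both cultivars 839 rows rose (3.69%) and 757 fell (3.33%), and 1 was called in opposite directions (0.00440%). A call in N22 and not in IR64 was made for 1070 rows (4.71%), of which 7 were called for the interaction (0.0308% of the rows tested). The reverse held for 330 rows (1.45%), of which 6 were called for it (0.0264%). A call in 1 cultivar alone therefore rarely came with a called difference between them.

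The interaction was also small as a share of the variation. Over the rows tested it held 2.435% of the sum of squares, against 46.93% for drought, 29.61% for cultivar and 21.03% within groups. Its mean square of 0.0699 lay below that within groups, 0.0754. The within-group value still holds any variation shared by same-numbered libraries, as replicate number was not in the main model. An unadjusted p below 0.05 was found for 1111 rows (4.89%), 668 of them positive (2.94%) and 443 negative (1.95%). The count was 1667 with replicate number in the model, and 3312 by a test of the 3 differences of differences. With libraries weighted by their spread it was 4299. It was lower, at 983, with a pseudocount of 0.1, and 841 without the first N22 drought library. The share thus depended on the model. The SE of the interaction had a median of 0.21, against 0.15 for the drought change of N22 alone, since 4 group means enter it. The smallest interaction among the called rows, relative to its SE, was 6.88.

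**Figure D1:**
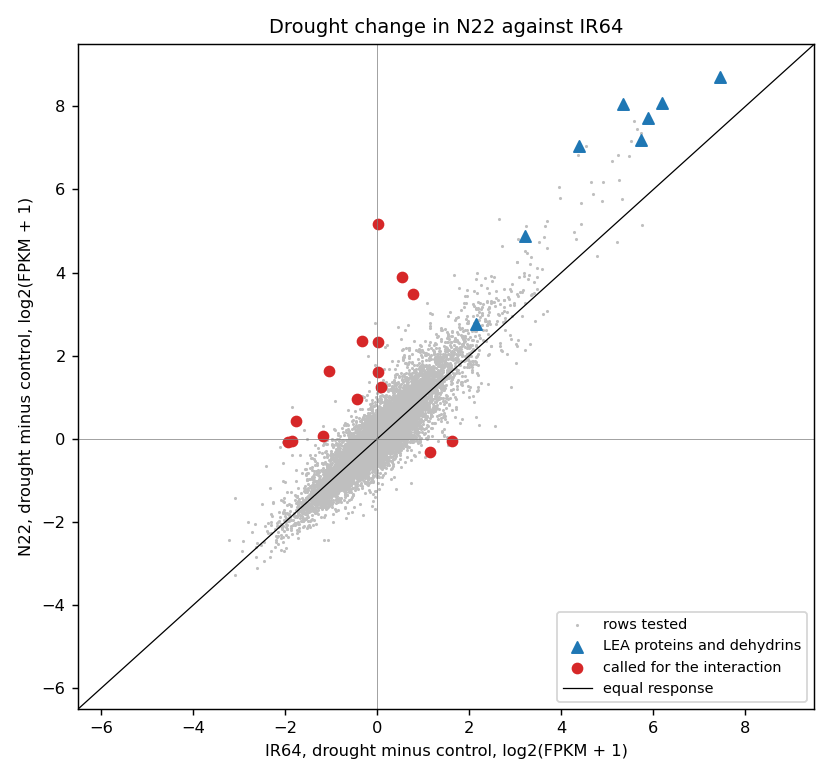
Drought change in N22 (vertical axis) against IR64 (horizontal axis), each drought minus control in log2(FPKM + 1), for the 22734 rows tested. Points above the line of equal response have a positive interaction. The 8 LEA genes (triangles) lie above the line at the upper right, and the 15 called rows (circles) mostly lie near 1 of the axes.

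The called rows fell into a few shapes of response. In 7 rows the drought change reached 1 in N22 alone, where they rose, with interactions of 1.17 to 5.15. In 4 rows it reached 1 in IR64 alone, where they fell, with interactions of 1.25 to 2.21. In those 4 the N22 control level was 0.023 to 0.105 of the IR64 control level, 0.181 to 1.35 FPKM in N22 control against 4.33 to 28.1 FPKM in IR64 control. They thus fell in the cultivar that had them, and stood low in N22 under both conditions. In 2 rows, both of negative interaction, the change reached 1 in IR64 alone, where they rose. One row was called in opposite directions, with changes of 1.63 in N22 and -1.04 in IR64. One row, with changes of 0.96 in N22 and -0.44 in IR64, was called for drought in neither (0.00440% of the rows tested). Among the 7 rows that rose in N22 alone, LOC_Os08g24860, LOC_Os03g07780 and LOC_Os08g30550 passed the filter for low values only through N22 drought. They thus entered the test only through the group where they were high.

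The called rows were of low to moderate level, with means over the 12 libraries of 0.697 to 26.3 FPKM. In 6 of the 15 the control levels of the cultivars differed at least 4-fold, against 800 (3.52%) of the rows tested. By the chromosome number in the locus names, 5 lay on chromosome 3 and 4 on chromosome 5. These chromosomes held 13.25% and 8.33% of the tested rows whose name gives a chromosome. The sign was the same in all 3 replicate numbers in 15 of 15 called rows, against 37.3% of the rows tested. The call was made from the same values, so this agreement is no separate test. Named here are the 2 positive and the 2 negative rows of smallest adjusted p. No source used here pairs their loci with a product.

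LOC_Os03g50490 showed the highest interaction of the rows tested. It measured 83.4, 101 and 35.3 FPKM in N22 drought, against 1.13, 1.09 and 0.529 in N22 control, 0.752, 0.537 and 1.01 in IR64 drought and 0.996, 0.549 and 0.713 in IR64 control. All 3 N22 drought libraries stood far above the other 9, whose values overlapped among themselves. The drought change was 5.16 in N22 and 0.01 in IR64, an interaction of 5.15 (SE 0.45, limma's adjusted p = 0.0023). By replicate number the interaction was 5.50, 5.62 and 4.34.

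LOC_Os03g61740 was among the rows that fell in IR64 alone. It measured 2.41, 2.27 and 1.83 FPKM in N22 drought, against 1.30, 1.64 and 1.13 in N22 control, 3.24, 3.23 and 2.69 in IR64 drought and 10.9, 14.1 and 13.8 in IR64 control. The IR64 controls stood above all other libraries, and no pair of the 4 groups overlapped. The change was 0.43 in N22 and -1.78 in IR64, an interaction of 2.21 (SE 0.18, limma's adjusted p = 0.0023).

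Both rows with a negative interaction rose under drought in IR64 and were not called in N22. LOC_Os05g43830 measured 9.06, 7.31 and 8.52 FPKM in N22 drought, against 9.51, 7.76 and 8.53 in N22 control, 17.9, 25.5 and 17.6 in IR64 drought and 7.47, 5.41 and 4.98 in IR64 control. The N22 groups overlapped, whereas all IR64 drought values lay above every other library. Its interaction was -1.66 (SE 0.24, limma's adjusted p = 0.0458), with -1.23, -2.12 and -1.64 by replicate number. A row shared by LOC_Os06g28790 and LOC_Os06g28800 measured 0.214, 0.262 and 0.171 FPKM in N22 drought, against 0.571, 0.547 and 0.430 in N22 control, 1.31, 2.52 and 1.61 in IR64 drought and 0.256, 0.333 and 0.152 in IR64 control. Its IR64 drought values lay above all others at a low level throughout, and it passed the filter for low values only through that group. Its interaction was -1.47 (SE 0.20, limma's adjusted p = 0.0376). Both negative calls were lost under many alternatives, LOC_Os05g43830 under 19 of 27 (adjusted p up to 0.191) and the shared row under 12 of 26 (up to 0.198).

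**Figure D2:**
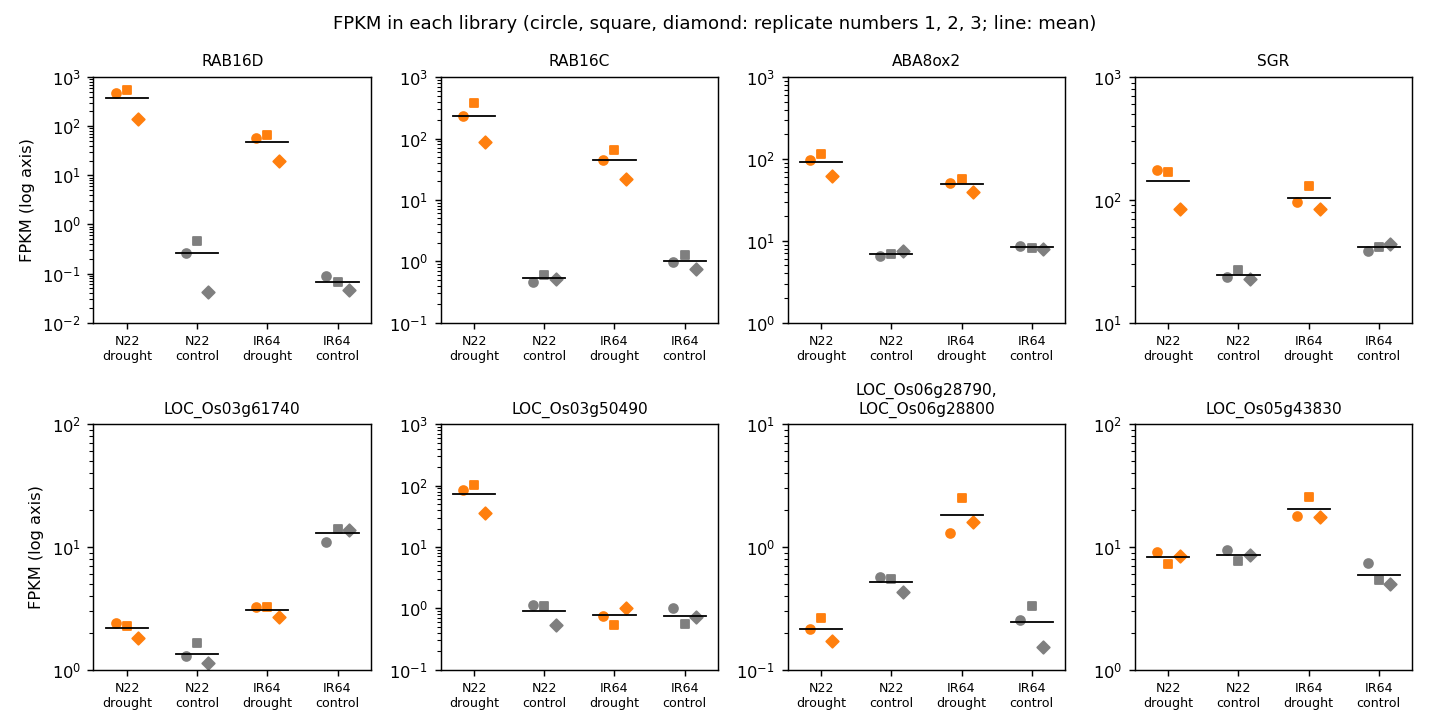
FPKM (log axis) in each of the 12 libraries for 4 list genes (top) and the 4 printed rows called for the interaction (bottom). Groups run from N22 drought to IR64 control, orange is drought and grey control, symbols mark replicate numbers and lines are means. In RAB16D and RAB16C the N22 drought libraries lie above those of IR64 drought, and the third drought library of each cultivar is the lowest of its group.

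None of the genes in 25 lists of pathways and markers was called for the interaction (0 of 243 rows by limma on group means). When libraries were weighted by their spread 7 of the 243 were called, against 275 of all 22734 rows tested. A limma test of the 3 differences of differences also called 7 of the 243, against 50 of the 22734. Those 7 were RAB16C, RAB16D, LEA3-2, WSI18, PYL6, HOX22 and HOX24. By group means, 10 of the 243 (4.12%) had an unadjusted p below 0.05, close to the 4.89% of all rows tested. The smallest adjusted p in the lists was 0.433. The interaction reached 1 with the same sign in all 3 replicate numbers in 8 list rows (3.29%), against 108 rows (0.475%) of all tested. These 8 were RAB16B, RAB16C, RAB16D, LEA3-2, WSI18, PYL6, HOX22 and HOX24, and 5 of them are LEA genes. Of the 15 called rows, 13 belonged to the 108, though both counts rest on the same values.

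All 8 LEA and dehydrin genes tested rose in both cultivars, as did 3.69% of all rows tested, and all 8 had a positive interaction in every replicate number, as did 20.8% of all rows. The median interaction of the list was 1.74, against 0.00 for all rows tested, and its medians by replicate number were 1.62, 1.48 and 1.87. Over the alternatives it ran from 1.06, without the third IR64 drought library, to 2.31, without the third N22 drought library. The scale can enlarge this median, since several IR64 controls were low and below those of N22. The median drought change was 7.44 in N22 and 5.54 in IR64. No member was called by group means, and 3 of 8 had an unadjusted p below 0.05 (4.89% of all rows). Under drought, 6 of 8 had all N22 values above all IR64 values, which held for 13.5% of the rows tested. In control this was so for 3 of 8, against 17.9% of the rows tested. A ninth gene, OsEM1, was listed in 6 libraries and not tested.

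The RAB16 genes encode dehydrins and lie side by side on chromosome 11 by their locus numbers (LOC_Os11g26750 to LOC_Os11g26790). Their sequences are similar, so reads may have been split among them. RAB16D measured 466, 545 and 142 FPKM in N22 drought, against 0.262, 0.462 and 0.0429 in N22 control, 58.6, 65.8 and 19.5 in IR64 drought and 0.0912, 0.0678 and 0.0455 in IR64 control. The drought groups did not overlap, with N22 the higher, while the control groups overlapped near 0. The means were 384 ± 214 FPKM in N22 drought, 0.256 ± 0.210 in N22 control, 48.0 ± 24.9 in IR64 drought and 0.0682 ± 0.0228 in IR64 control (SD, n = 3 each). The drought change was 8.06 in N22 and 5.34 in IR64. The interaction was 2.71 (SE 0.72, limma's adjusted p = 0.484), with 2.76, 2.58 and 2.80 by replicate number. The ratio of N22 to IR64 mean FPKM was 3.75 in control and 8.01 under drought, a smaller difference in fold change than the interaction implies.

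RAB16C measured 237, 381 and 87.7 FPKM in N22 drought, against 0.456, 0.597 and 0.521 in N22 control, 44.2, 66.2 and 22.2 in IR64 drought and 0.957, 1.28 and 0.754 in IR64 control. Neither pair of cultivars overlapped, N22 standing above IR64 under drought and below it in control. The interaction was 2.66 (SE 0.68, limma's adjusted p = 0.433), and the ratio of N22 to IR64 mean FPKM was 0.527 in control and 5.32 under drought. RAB16B measured 707, 989 and 254 FPKM in N22 drought, 2.41, 2.19 and 0.801 in N22 control, 85.0, 172 and 26.6 in IR64 drought and 0.306, 0.305 and 0.177 in IR64 control. It was the higher in N22 in both conditions without overlap. The ratio of N22 to IR64 mean FPKM was 6.85 in control and 6.87 under drought, so the fold response was about equal. The interaction of 1.83 (SE 0.88) on log2(FPKM + 1) thus came with no larger fold change in N22. It was 1.66, 1.23 and 2.59 by replicate number, and as low as 0.67 over the alternatives. RAB16A had the highest drought level of the RAB16 genes, 2358, 3502 and 949 FPKM in N22 drought and 455, 730 and 172 in IR64 drought. Its interaction, 1.25 (SE 0.91), was the lowest of the RAB16 genes. Its ratio of N22 to IR64 mean FPKM was 3.31 in control and 5.02 under drought.

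The other LEA genes gave interactions of 0.63 to 1.90. OsLEA3, a group 3 LEA protein, measured 2067, 2992 and 959 FPKM in N22 drought and 546, 863 and 198 in IR64 drought. Its drought groups did not overlap, and the interaction of 1.90 (SE 0.85) was 0.89, 1.91 and 2.88 by replicate number. WSI18, another LEA protein, measured 720, 1123 and 266 FPKM in N22 drought, again above the 170, 216 and 76.7 in IR64 drought, with an interaction of 1.45 (SE 0.70). LEA3-2 measured 66.2, 134 and 26.2 FPKM in N22 drought and 15.3, 28.5 and 4.72 in IR64 drought, which overlapped. Its interaction of 1.66 (SE 0.85) was 1.78, 1.59 and 1.60 by replicate number. The dehydrin gene DHN1, already at 121 ± 27.0 FPKM in N22 control and 112 ± 37.6 FPKM in IR64 control (SD, n = 3 each), had the smallest interaction of the list, 0.63 (SE 0.52).

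**Figure D3:**
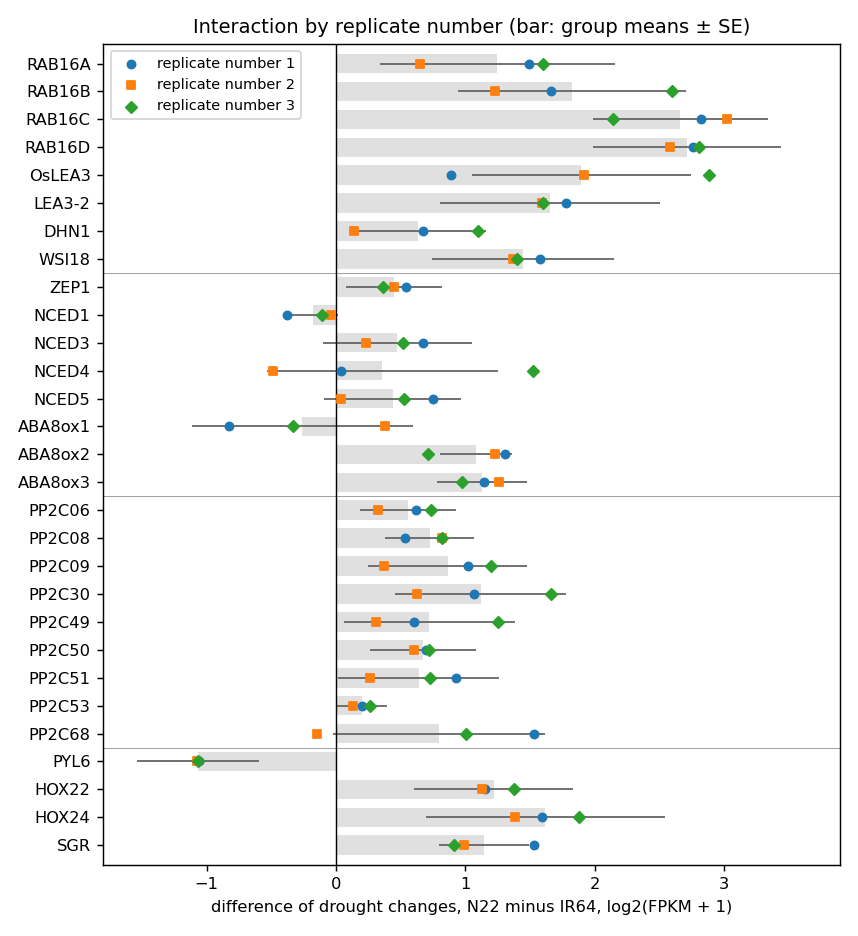
Interaction (N22 minus IR64 drought change, log2(FPKM + 1)) of genes of LEA proteins, ABA synthesis and breakdown, PP2C phosphatases, the receptor PYL6, HOX22, HOX24 and SGR. Bars are values by group means with their SE, and symbols the values within each replicate number. The 8 LEA genes are positive in all 3 numbers, with RAB16C and RAB16D the highest, and PYL6 lies near -1.07 in each.

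Among 8 genes of ABA synthesis and breakdown, 5 rose in N22 and 4 in IR64 (6.36% and 4.34% of all rows tested), and the median interaction was 0.44. Over the alternatives it ran from 0.15, without the third IR64 drought library, to 0.82, without the second. The highest interactions belonged to a pair of ABA hydroxylases, which start ABA breakdown. ABA8ox2 measured 98.5, 114 and 62.7 FPKM in N22 drought, against 6.47, 6.90 and 7.58 in N22 control, 51.3, 56.8 and 39.7 in IR64 drought and 8.71, 8.26 and 7.96 in IR64 control. N22 stood above IR64 under drought and below it in control, with no overlap in either. The gene rose by 3.50 in N22 and by 2.42 in IR64, an interaction of 1.08 (SE 0.28, limma's adjusted p = 0.457), with 1.31, 1.23 and 0.71 by replicate number.

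ABA8ox3 measured 5.06, 6.94 and 3.85 FPKM in N22 drought, against 0.586, 1.14 and 0.642 in N22 control, 1.45, 2.07 and 2.72 in IR64 drought and 0.421, 0.987 and 1.48 in IR64 control. It rose in N22 by 1.80, where its drought values stood above all other libraries, and its change of 0.67 in IR64 was not called. The interaction was 1.13 (SE 0.35, limma's adjusted p = 0.614). ABA8ox1, the most abundant of the hydroxylase genes in control, had an interaction of -0.26 (SE 0.85) that ranged from -0.83 to 0.38 among the replicate numbers. Its IR64 drought libraries measured 168, 40.1 and 335 FPKM, a wider spread than the 101, 77.9 and 133 FPKM of N22 drought.

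On the side of synthesis the interactions were smaller. ZEP1, zeaxanthin epoxidase, rose by 2.46 in N22 and by 2.01 in IR64, with an interaction of 0.45 (SE 0.37). Of the dioxygenases that cleave the ABA precursor, NCED3 had an interaction of 0.47 (SE 0.58), NCED5 of 0.44 (SE 0.53) and NCED1 of -0.18 (SE 0.19). NCED4, which rose in both cultivars, had one of 0.36 (SE 0.89) that was 0.04, -0.49 and 1.52 by replicate number and turned negative without the third IR64 drought library (-0.26) or the second N22 drought library (-0.02).

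Along the ABA signalling chain the members differed in direction. Of 4 PYL receptor genes tested, PYL6 alone was called for drought, and only in N22. Of all rows tested, 11.7% were called in N22 and 8.48% in IR64. PYL6 measured 13.9, 18.02 and 29.8 FPKM in N22 drought, against 60.5, 45.9 and 39.4 in N22 control, 27.5, 46.0 and 71.2 in IR64 drought and 55.5, 54.0 and 44.0 in IR64 control. The N22 drought libraries lay below the N22 controls, while the IR64 groups overlapped. It fell by 1.25 on the log2 scale in N22 and changed by -0.18 in IR64 (not called), an interaction of -1.07 (SE 0.47, limma's adjusted p = 1.00) that was -1.06, -1.08 and -1.07 by replicate number. The receptor list had a median interaction of -0.12.

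Of 9 clade A PP2C genes, 8 rose in each cultivar, against 6.36% of all rows in N22 and 4.34% in IR64. The interaction was positive in 9 of 9 by group means (50.9% of all rows) and in 8 of 9 in every replicate number (20.8%). Their median interaction was 0.72 (0.70, 0.32 and 0.82 by replicate number), with 0.28, without the third IR64 drought library, as its lowest over the alternatives, and none had an unadjusted p below 0.05. PP2C30 had the highest, 1.12 (SE 0.66). It measured 292, 333 and 128 FPKM in N22 drought and 131, 198 and 57.9 in IR64 drought, which overlapped. PP2C08 had the smallest p of the list, with an interaction of 0.72 (SE 0.34, limma's adjusted p = 1.00). PP2C53, at 14.7 to 24.3 FPKM in all 12 libraries, was called in neither cultivar and had the lowest, 0.20 (SE 0.20). PP2C68 was the exception in sign, with -0.15 in number 2. The 10 SnRK2 kinase genes had a median interaction of 0.13, and SAPK5, with the smallest p among them, one of 0.32 (SE 0.15).

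Of 18 genes of drought transcription factors, 12 rose and 1 fell in N22 (6.36% and 5.37% of all rows), and 7 rose in IR64 (4.34%). Their median interaction was 0.35 (0.18 to 0.60 over the alternatives, without the second and without the third N22 drought library), positive in 13 (50.9% of all rows) and negative in 5. bZIP12, of the bZIP class that SnRK2 kinases act on, measured 168, 164 and 89.0 FPKM in N22 drought and 84.4, 81.4 and 59.2 in IR64 drought. It rose in both cultivars, and its interaction was 0.65 (SE 0.32, limma's adjusted p = 1.00). The homeodomain-leucine zipper genes HOX22 and HOX24 also rose in both. HOX24 measured 304, 430 and 93.5 FPKM in N22 drought and 98.7, 198 and 28.2 in IR64 drought, with control values of 0.268 to 0.774 FPKM. Its drought groups overlapped, and the interaction was 1.62 (SE 0.92), with 1.59, 1.38 and 1.88 by replicate number. For HOX22 the interaction was 1.22 (SE 0.62), with 1.15, 1.13 and 1.38.

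The stay-green gene SGR, whose product removes magnesium from chlorophyll at the start of its breakdown, measured 174, 169 and 84.9 FPKM in N22 drought, against 23.4, 26.6 and 22.6 in N22 control, 96.7, 130 and 84.9 in IR64 drought and 38.4, 41.1 and 43.3 in IR64 control. The control groups did not overlap, N22 being the lower, and the drought groups did. It rose by 2.44 in N22 and 1.30 in IR64, an interaction of 1.14 (SE 0.35, limma's adjusted p = 0.614). The 12 genes of chlorophyll synthesis and breakdown had a median of 0.02.

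Of the list of DNA replication and cell division, 12 members were tested. In N22 10 fell and in IR64 8, against 5.37% and 4.14% of all rows. Their interaction was negative in 11 of 12 (49.1% of all rows), and 8 had the same sign in all 3 numbers (37.3%). The median of -0.35 was -0.40, -0.49 and -0.15 by replicate number and ran over the alternatives from -0.79, without the third N22 drought library, to -0.02, without the second. MCM6, a subunit of the replicative helicase, measured 1.72, 1.12 and 5.15 FPKM in N22 drought, against 9.26, 7.83 and 9.03 in N22 control, 2.83, 1.98 and 4.24 in IR64 drought and 7.56, 6.998 and 5.97 in IR64 control. The third N22 drought library lay above all IR64 drought libraries and the other two below 2. Its interaction of -0.56 (SE 0.47) had the smallest p of the list and was not called.

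The 19 photosynthesis genes fell and rose in like numbers in both cultivars, with 9 falling and 4 rising in N22 and 9 falling and 3 rising in IR64, and had a median interaction of 0.07. Of all rows, 5.37% fell and 6.36% rose in N22, and 4.14% fell and 4.34% rose in IR64. Here the replicate numbers went apart. RBCS2, a small subunit of Rubisco, measured 1579, 871 and 3301 FPKM in N22 drought, against 7705, 7541 and 6450 in N22 control, 2093, 1799 and 1247 in IR64 drought and 5458, 7490 and 7237 in IR64 control. Within N22 drought the third library was the highest, and within IR64 drought it was the lowest. Its interaction was -0.90 and -1.06 in numbers 1 and 2 and 1.57 in number 3, and -0.13 (SE 0.58) by group means. RBCS3, the most abundant gene of the list, had -0.71, -0.61 and 0.74, and the Rubisco activase gene RCA -0.66, -0.80 and 1.37. Reads may have been split among the RBCS genes, which are alike in sequence. The antenna gene LHCA2 kept its sign, with an interaction of 0.43 (SE 0.17, limma's adjusted p = 0.881).

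The type-A response regulators, which damp cytokinin signalling, also spread by number. Of 7 tested, 4 fell in each cultivar (5.37% of all rows in N22, 4.14% in IR64), and the median interaction of -0.21 was -0.70, -0.11 and 0.39 by replicate number. RR9 had -1.70, -0.11 and 0.24, and RR10 -1.65, -0.31 and 0.44. RR3, with the smallest p among them, had an interaction of -0.21 (SE 0.18).

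Root markers were tested because the labels give no organ. None of 9 was called for drought in either cultivar, against 11.7% of all rows in N22 and 8.48% in IR64. The median interaction of the 9 was -0.31, negative in 7 of 9 (49.1% of all rows). The ammonium transporter gene AMT1;1 measured 15.6, 16.8 and 16.6 FPKM in N22 drought, against 19.1, 21.3 and 18.6 in N22 control, 27.1, 21.1 and 23.4 in IR64 drought and 23.5, 19.8 and 19.5 in IR64 control. The N22 drought values lay below those of every other group, with an interaction of -0.43 (SE 0.15, limma's adjusted p = 0.756). The silicon transporter gene Lsi1, the most abundant of the list, had an interaction of -0.17 (SE 0.23). The summed FPKM of 7 root markers was 295 to 431.7 in N22 drought, 417.8 to 512.1 in N22 control, 532.6 to 564.9 in IR64 drought and 547.7 to 613.2 in IR64 control, with 1 marker not listed in each of 2 N22 drought libraries. That of 8 leaf markers was 3861 to 10080 in N22 drought, 16730 to 20060 in N22 control, 5431 to 6829 in IR64 drought and 15220 to 18450 in IR64 control. Markers of both organs were thus measured in every group, and the part that the organ makeup has in the interaction was not tested.

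The remaining lists had medians between -0.16 and 0.35. The 12 WRKY genes had a median interaction of -0.10, with 0.53 (SE 0.21, limma's adjusted p = 0.876) for a row of WRKY72 shared with a neighbouring locus. The 4 rows of DREB1/CBF factors had a median of 0.15 and DREB1C one of 0.54 (SE 0.72). Among 11 genes of proline, sugars and betaine the median was 0.06. There the galactinol synthase gene GolS1 measured 190, 239 and 127 FPKM in N22 drought and 79.6, 137 and 45.4 in IR64 drought, was called in neither cultivar, and had an interaction of 1.06 (SE 0.52). The aquaporin medians were 0.10 for 10 PIP genes, with PIP2;7 at -0.65 (SE 0.63), and 0.02 for 5 TIP genes, with TIP4;1 at -0.35 (SE 0.20).

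Among growth and stress genes, 12 expansins, which loosen cell walls, had a median of 0.15, and 6 fell in each cultivar (5.37% of all rows in N22, 4.14% in IR64). EXPA8 had an interaction of 0.66 (SE 0.32), and EXPB11 one of 1.13 (SE 0.61) that was 0.22, 0.51 and 2.66 by replicate number. The 9 cellulose synthase genes had a median of -0.02 (CESA2 0.14), and 8 heat shock rows one of 0.35 (0.03 without the third and 0.57 without the second IR64 drought library), with -0.36 for a row of HSP17.4 and HSP17.7. The 14 genes of antioxidant enzymes had a median of 0.00, with the ascorbate peroxidase gene APX5 at -0.51 (SE 0.24). The 17 jasmonate genes had a median of -0.16 (JAR1 -0.39). None of the 17 was called for drought in either cultivar (11.7% of all rows in N22, 8.48% in IR64). Medians were -0.01 for 8 gibberellin genes (KO2 -0.44), 0.00 for 10 clock genes (LHY 0.21) and -0.07 for 4 sucrose genes (SUS2 -0.23). The 3 reference genes had a median of -0.09. Of these, eEF1A had an interaction of -0.09 (SE 0.23), while the actin gene ACT1, which fell in IR64 by 1.17 on the log2 scale, had one of 0.24 (SE 0.29).

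**Figure D4:**
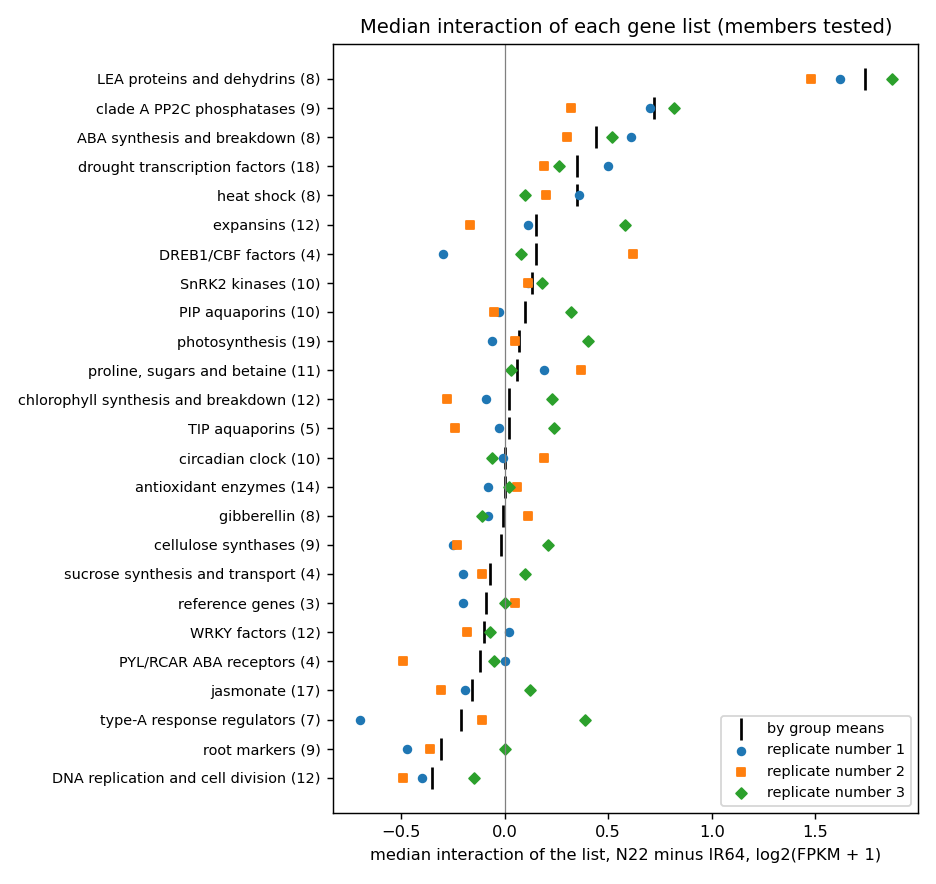
Median interaction (N22 minus IR64, log2(FPKM + 1)) of each of the 25 gene lists, with the number of members tested in parentheses. The vertical ticks are values by group means and the symbols those within each replicate number. By group means the LEA list stands at 1.74 and the list of DNA replication and cell division at -0.35, and type-A response regulators differ in sign among the numbers.

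The replicate numbers were compared over all rows, as no library is shared between them. The interactions of numbers 1 and 2 correlated across the 22734 rows (Pearson's r = 0.518, Spearman's rho = 0.458). Number 3 correlated less, with r = 0.231 and rho = 0.153 against number 1, and r = 0.216 and rho = 0.134 against number 2. These are correlations across genes, which are not independent replicates, and are given as a description. The sign was the same in all 3 numbers in 8482 rows (37.3%), positive in 4733 (20.8%) and negative in 3749 (16.5%). Of the 108 rows past 1 in all 3, 93 were positive (0.409%) and 15 negative (0.0660%).

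The size of the response was then compared over the 2289 rows (10.1%) called for drought averaged over both cultivars, a contrast that treats the cultivars alike. In the direction of that average, the median change was 1.45 in N22 and 1.25 in IR64, and the median interaction 0.20. It was 0.08 over the 12307 rows with a low enough adjusted p whatever their size, and 0.12, 0.01 and 0.49 without N22 drought library 1, 2 and 3 and 0.05 without the third of IR64 drought. The excess of N22 was 0.37 in number 1 and 0.41 in number 2, and -0.12 in number 3. For the 1224 rows higher under drought (5.38%) it was positive in each number, at 0.43, 0.39 and 0.23. For the 1065 lower rows (4.68%) it was 0.32 and 0.42 in numbers 1 and 2, and -0.42 in number 3, where the median fall was 0.64 in N22 and 1.05 in IR64. Rows higher under drought thus had the larger median change in N22 in all 3 numbers, and lower rows had it in 2 of 3. The third N22 drought library also held the highest leaf marker sum of its group, 10080 FPKM against 5439 and 3861. Without this library the interaction was called for 111 rows, with RAB16C, RAB16D, ABA8ox2 and SGR among them.

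**Figure D5:**
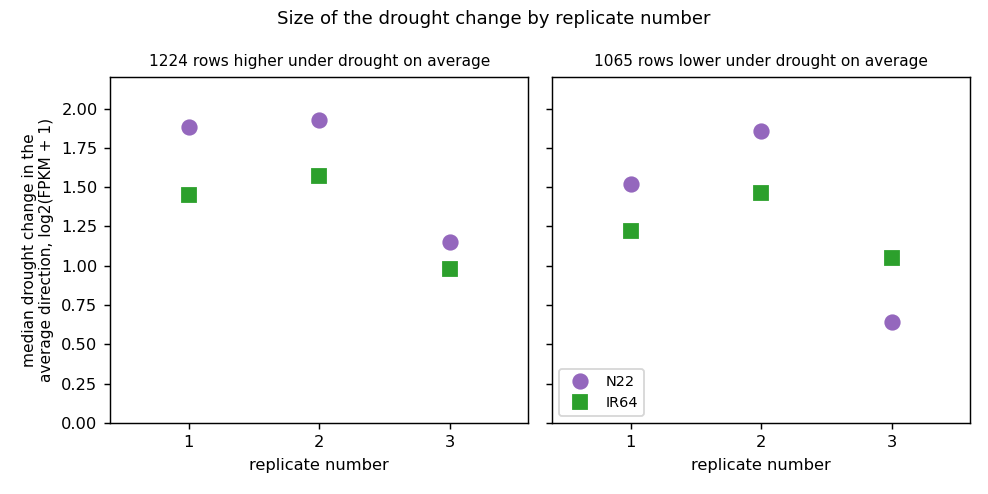
Median drought change in the direction of the average response, in log2(FPKM + 1), by replicate number for N22 (circles) and IR64 (squares). Left, 1224 rows higher under drought on average; right, 1065 rows lower. N22 lies above IR64 everywhere except in number 3 of the lower rows, where it is 0.64 against 1.05.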

How the data were processed

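The deposited values are FPKM per transcript assembly row, which the authors computed with Cufflinks 2.2.1 after alignment with TopHat2 2.1.1, per the submitters' processing notes. Per the series design text, reads were aligned to the RGAP rice genome, and missForest was used to fill a value missing in 1 replicate. Whether the deposited values hold filled ones is not stated. Groups and replicate numbers came from the sample titles. Rows were joined by identifier and kept where listed in all 12 libraries and at FPKM 1 or more in 2 libraries of any 1 group. Of these, 868 carry no locus name and 1171 name more than 1 locus.

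Group means of log2(FPKM + 1) were compared in limma (version 3.58.1, under R 4.3.3; intensity trend, two-sided moderated tests, Benjamini-Hochberg over 22734 rows in each contrast) and tested on simulated data. Other software was the data.table package at version 1.17.8 for reading files, matplotlib 3.10.9 for plots, and Python 3.11.15 with pandas 2.3.3 for checking lists. The thresholds are those of the design text. FPKM values hold no counts, so no counting intervals are given.

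The contrast, gene lists and naming rule were chosen with earlier results of these data known. Of 257 pairs of symbol and locus in 25 lists, 191 symbols were found in a RefSeq gene table of another rice assembly (ASM3414082v1). Dropped were 5 pairs, namely FBP1, SPS1, UBQ5 and GAPC, which the table contradicted, and PYL5, although its chromosome matched. Not tested were 7 (OsEM1, PYL4, HSP26.7, RR5, SUS3, NRT2.1 and NRT2.2). The root marker RCc3 was left out because its locus could not be checked, a choice made after its values were seen. Other pairs whose symbol was not in that table were kept, with their loci unchecked against it. Among these were RAB16A, WSI18, PYL6, NCED4, bZIP12, GolS1, RBCS3, LHCA2 and eEF1A. Named were each list's member of smallest interaction p, members with an unadjusted p below 0.05, all members of the LEA and ABA metabolism lists, the most abundant root marker, photosynthesis and reference gene, and the 2 called rows of smallest adjusted p in each direction. HOX22, HOX24, PP2C30, PP2C53, PP2C68, RBCS2, RCA, RR9, RR10, ACT1 and EXPB11 were named after their values were seen.

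Alternatives were a replicate block, 3 paired differences, other pseudocounts, filters and scalings, array weights, a fit with no trend, calls by adjusted p alone, and leaving out libraries.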

Additional observations from a re-analysis of the deposited data

Results flagged for a closer look

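In 4 named rows the drought response differed between the cultivars by the test of the difference itself. LOC_Os03g50490 had an interaction of 5.15 and was called under all 27 alternatives, with an adjusted p of at most 0.0308. LOC_Os03g61740 had an interaction of 2.21 and was not called under 2 of 27, both with replicate numbers 1 and 2 alone (adjusted p up to 0.0545). Its mean N22 control level was 1.35 FPKM, from which log2(FPKM + 1) cannot change by the -1.78 seen in IR64. The change in N22 was 0.43, and the part that the scale has in this interaction was not tested. LOC_Os05g43830 had an interaction of -1.66, and the row of LOC_Os06g28790 and LOC_Os06g28800 one of -1.47. Both calls were lost under many alternatives, the first under 19 of 27 and the second under 12 of 26.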

How the results depend on the processing

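The interaction was called for 15 rows. The count was 7 with an FPKM minimum of 5 (11 of the 15 rows remained in that fit), 61 with missing rows counted as 0 (42 of them outside the rows listed in all libraries) and 275 with array weights, among them RAB16C, RAB16D, ABA8ox2, ABA8ox3, PP2C08, HOX22 and SGR. Leaving out 1 library gave 4 to 111. Each library but the first IR64 control moved it by over 1.5 times, namely to 5, 8 and 111 without N22 drought 1, 2 and 3, to 5, 4 and 7 without N22 control 1, 2 and 3, to 7, 8 and 7 without IR64 drought 1, 2 and 3, and to 4 without IR64 control 2 or 3. Without both drought libraries numbered 3, an alternative added after the data were seen, it was 135. Leaving out 1 library gave 1831 to 3848 rows for drought in N22, 1529 to 2536 in IR64, and 0.01 to 0.49 for the excess of N22. With the adjusted p alone, drought called 9133 rows in N22 and 7056 in IR64, and the excess was 0.08. The rows past 1 in all 3 numbers were 165 with a pseudocount of 0.1 and 194 with missing rows as 0, and could not be counted with a library left out.

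Same-numbered libraries had deviations from their group means that correlated above 0.1 in 17 of 18 cases (r of 0.076 to 0.635), and 12 of 12 libraries correlated best with their own number, a hint from the data. As not every pair exceeded 0.1, the numbers were not taken to pair the libraries. With a replicate block the interaction count was 11, with 10 rows shared, and the block as 3 paired differences gave 50, of which 5 were shared and 7 others were RAB16C, RAB16D, LEA3-2, WSI18, PYL6, HOX22 and HOX24. Numbers 1 and 2 alone with the block, added after the data were seen, gave 9. The excess was -0.12 in number 3.

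Alternatives were run for 44 named list genes, among them HOX22, HOX24 and ACT1, which were named after their values were seen. Of the 44, 33 were called in none of the 26 or 27 alternatives run for each. Leaving out 1 library turned the sign of 6 uncalled genes, namely NCED4 (-0.26 to 1.00, negative without N22 drought 2 at -0.02 or IR64 drought 3), ABA8ox1 (-1.11 to 0.41, positive without IR64 drought 3), RBCS3 (-0.62 to 0.12, N22 drought 2), Lsi1 (-0.28 to 0.01, N22 drought 1), eEF1A (-0.21 to 0.01, IR64 control 2) and ACT1 (0 to 0.39, N22 drought 3). NCED4 also turned with numbers 1 and 2 alone, with or without the block (-0.22), and ABA8ox1 without both drought libraries numbered 3 (0.22). The causes were not tested. FPKM without read depth limits what can be said of low rows.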
